A study of Homo sapiens with 12 samples.

Results

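The genes described here are 9 Fc receptor and kinase genes of MOLM14 cells: FCGR1A, FCGR2A, FCGR2B, FCGR2C, FCER1G, FCGRT, FGR, LYN and SYK. They were chosen by symbol, with earlier results of these data known. They are the 9 rows of a count table of 61487 genes whose identifiers carry these names. MOLM14 is an established human acute myeloid leukemia cell line with a KMT2A fusion. Every group carried a doxycycline-inducible short hairpin RNA against RIP140 (genotype shRIP140), a transcriptional coregulator of nuclear receptors encoded by NRIP1. The comparison asks how the retinoid changes these genes and whether lowering RIP140 alters that change. The 4 groups of 3 libraries each were cells given ATRA and DOX together (ATRA+DOX), cells given ATRA alone, cells given DOX alone and untreated cells. ATRA is all-trans retinoic acid, given at 1 µM for 48 h, and DOX is doxycycline, given at 50 ng/mL to switch the hairpin on and renewed every other day. The cells grew in serum free of tetracycline. No library here had doxycycline with another hairpin, so an effect of doxycycline and an effect of RIP140 loss cannot be told apart. The series counts the libraries of a group as biological replicates, and p-values measure the spread between them.

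Fc receptors bind the constant part of antibodies. Receptors of the activating kind, such as FCGR1A (CD64), FCGR2A and FCGR2C, pass the signal through paired tyrosines of an immunoreceptor tyrosine-based activation motif (ITAM), carried either in their own tail or in the adaptor FCER1G. SRC-family kinases such as LYN and FGR phosphorylate these tyrosines, and the kinase SYK docks on the phosphorylated pair and starts the signal for phagocytosis and the oxidative burst. FCGR2B is the inhibitory receptor of the family: its tail carries an inhibitory motif (ITIM) that recruits phosphatases once LYN has phosphorylated it. FCGRT works differently, as the heavy chain of the neonatal Fc receptor, which pairs with beta-2 microglobulin and returns IgG from endosomes to the cell surface. SYK is not itself a SRC-family kinase and stands here as the next enzyme in the chain.

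In cells given ATRA the kinase genes FGR and LYN, the recycling receptor FCGRT, the adaptor FCER1G and the low-affinity receptors FCGR2B and FCGR2C rose, whereas the high-affinity receptor FCGR1A and the kinase SYK fell and FCGR2A was not called. With DOX the picture was narrower. FCGR2C fell with DOX both in the absence and in the presence of ATRA, FCGR2B fell with DOX in ATRA-treated cells, and FCGR1A rose with DOX in cells without ATRA. For FCGR2B without ATRA (-0.62 ± 0.23) and FCGR1A with ATRA (0.41 ± 0.14) the log2 change had the same sign but was not called. For none of the 9 genes was the change with DOX called different between cells with and without ATRA. FGR, LYN, FCGRT and SYK were not called between ATRA+DOX and ATRA cells. Some of these calls were less stable than others. The ATRA calls of FCER1G and SYK were lost when libraries were left out or the fit was changed, as given below. So were the calls of FCGR1A and FCGR2C with DOX in cells without ATRA.

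The motifs that divide activating from inhibitory members are read in the transcript sequences. These are shown because, of the 3 related FCGR2 genes, FCGR2B differs from FCGR2A and FCGR2C at this point. All stretches lie on the plus strand of GRCh38 in exons of GENCODE release 29 transcripts, and capitals mark the tyrosine codons of each motif. Annotated coding sequences were searched, except for FCGR2C, where every reading frame of the whole transcripts was searched. For FCGR2A (chr1:161518056-161518115) and FCGR2C (chr1:161599711-161599770) the activation motif was identical over 60 of 60 bases. That of FCER1G spans an intron (chr1:161218718-161218723 and chr1:161218881-161218919), as does the inhibitory stretch of FCGR2B (chr1:161677357-161677365 and chr1:161677476-161677526).
FCGR2A: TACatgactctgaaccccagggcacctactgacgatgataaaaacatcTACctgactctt
FCGR2C: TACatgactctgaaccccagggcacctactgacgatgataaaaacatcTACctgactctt
FCER1G: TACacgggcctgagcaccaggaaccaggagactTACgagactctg
FCGR2B: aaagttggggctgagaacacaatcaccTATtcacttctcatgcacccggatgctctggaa
The activation pattern searched was tyrosine, 2 further codons and leucine or isoleucine, then the same again after 6 to 12 codons. Of 19669 protein-coding genes 6.65% held it in their longest coding sequence. The inhibitory pattern, isoleucine, valine, leucine or serine, any codon, tyrosine, 2 further codons and leucine or valine, is short and occurred in 40.9% of them, so a match alone is only a description. FCGR2C is annotated as a polymorphic pseudogene in this release, because only some people carry an allele that reads through.

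Library totals lay between 2685984 and 19358619 counts, the smallest being replicate 3 of the DOX group. Levels are given as CPM, the counts of a gene relative to the library total as scaled by the TMM method. NRIP1, the hairpin's target, averaged 18.9 ± 2.66 CPM in ATRA+DOX cells against 43.8 ± 7.10 CPM in ATRA cells, and 16.6 ± 2.24 CPM in DOX cells against 57.3 ± 3.51 CPM in untreated cells (SD, n = 3 each). Of the myeloid markers SPI1, CEBPA, CD33, ITGAM, LYZ and MPO were present in all 12 libraries, while CD14 did not pass 0.321 CPM and CD68 did not pass 1.19 CPM. CD3E, CD2, PF4, PPBP, TPSAB1 and EPCAM were at 0 counts and MS4A1 had 2 counts over the 12 libraries, but PAX5, BANK1, NCAM1, NKG7, KRT8 and KRT18 were detected in every library. These are bulk libraries, in which fewer cells that express a gene and less RNA per cell cannot be told apart.

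**Figure D1:**
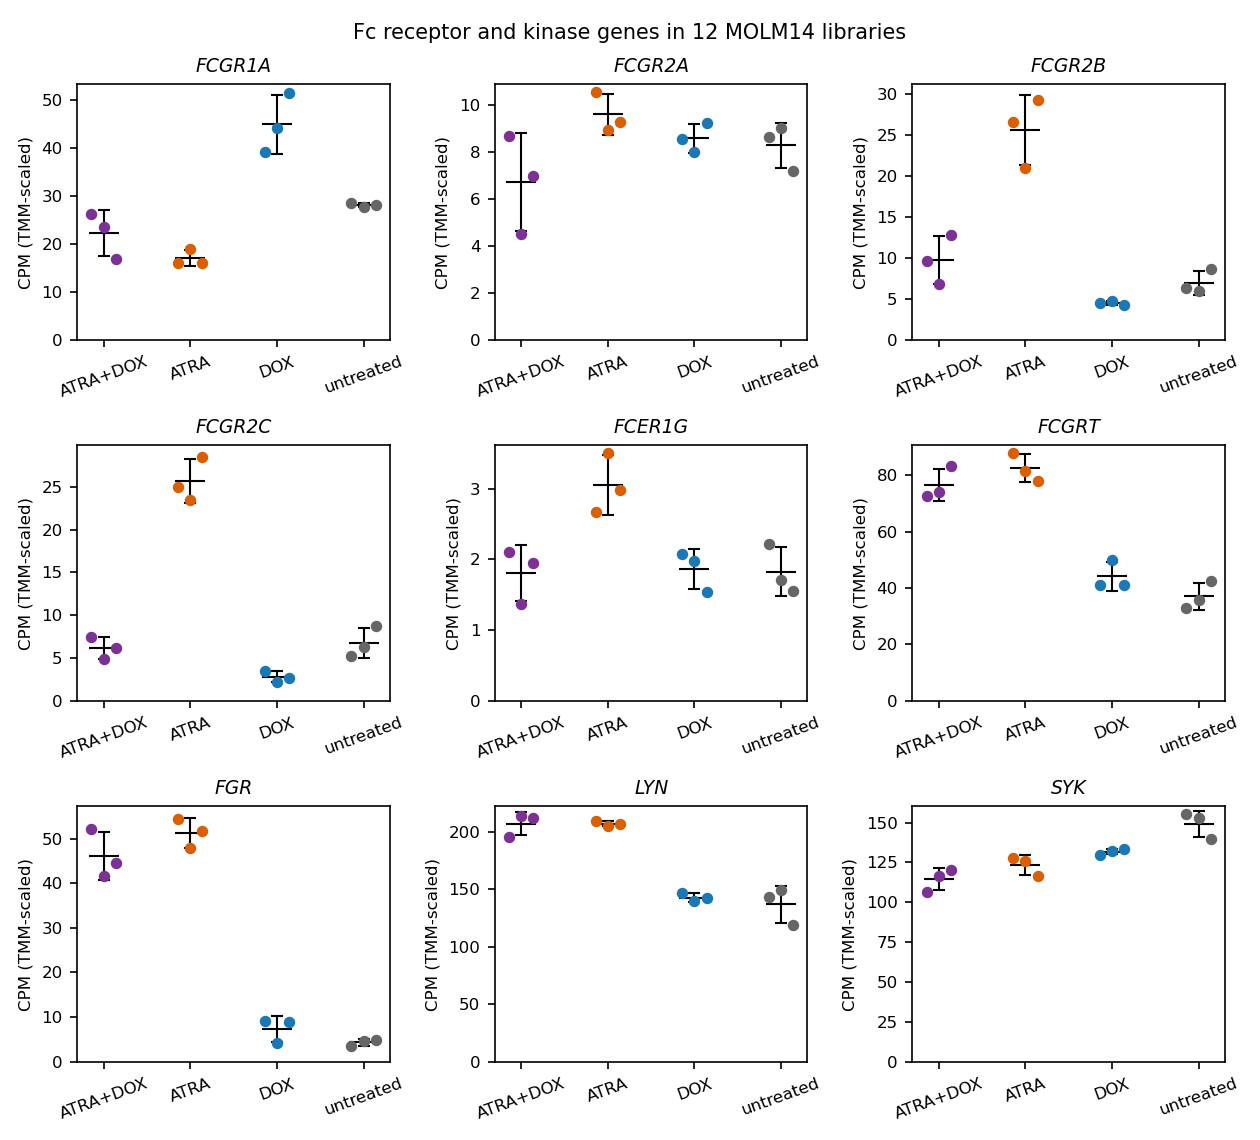
Level of each of the 9 genes in CPM (y axis, each panel from 0) in the 3 libraries of the ATRA+DOX, ATRA, DOX and untreated groups (points), with the group mean and SD (black). FGR lies above 40 CPM in every library given ATRA and below 10 CPM in every library without it, FCGR2B and FCGR2C stand highest in the ATRA group, and FCGR1A stands highest in the DOX group.

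FCGR1A encodes CD64, the high-affinity receptor for monomeric IgG, which signals through FCER1G. Its gene lies on the plus strand of chromosome 1 (chr1:149782671-149792518, GRCh38). It had 26.3, 23.4 and 16.9 CPM in ATRA+DOX libraries, 16.1, 18.9 and 16.0 CPM in ATRA libraries, 39.2, 44.3 and 51.4 CPM in DOX libraries, and 28.6, 27.6 and 28.1 CPM in untreated libraries. All DOX libraries lay above all untreated ones, all ATRA libraries lay below them, and the ATRA+DOX libraries ran from just inside the ATRA range to just below the untreated one. Relative to untreated cells FCGR1A fell by 0.73 ± 0.14 with ATRA (log2 fold change ± SE, edgeR quasi-likelihood test, Benjamini-Hochberg adjusted p = 0.000297) and rose with DOX by 0.65 ± 0.13 (adjusted p = 0.0042). With the hairpin on, it again fell by 0.97 ± 0.13 with ATRA (ATRA+DOX versus DOX, adjusted p = 1.4e-05). The difference of 0.41 ± 0.14 between ATRA+DOX and ATRA cells was not called (adjusted p = 0.0992), although it was without ATRA+DOX replicate 3 (0.56, adjusted p = 0.0172). The difference of -0.32 ± 0.13 between ATRA+DOX and untreated cells was not called either (adjusted p = 0.0577), and it was without DOX replicate 1 (-0.31, adjusted p = 0.0419) or without ATRA+DOX replicate 1 (-0.45, adjusted p = 0.0143).

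FCGR1A has near-copies, FCGR1BP and FCGR1CP, and 36.5% of the 100-base stretches of its transcripts occur in another gene as well, so reads may have been split among the 3 or lost. The 3 rows could be compared because the copies are counted apart. FCGR1A held 83.0 ± 1.46% of their counts in ATRA+DOX, 86.7 ± 2.48% in ATRA, 84.3 ± 2.65% in DOX and 84.2 ± 1.40% in untreated cells (SD, n = 3 each), so its share was close to even across groups. FCGR1BP had 3.31, 2.73 and 2.39 CPM in ATRA+DOX libraries, 0.826, 1.49 and 1.25 CPM in ATRA libraries, 5.41, 5.16 and 5.38 CPM in DOX libraries and 2.61, 3.00 and 2.38 CPM in untreated libraries. The DOX libraries were again the highest and the ATRA libraries the lowest, with no overlap. FCGR1BP fell by 1.20 ± 0.28 with ATRA (adjusted p = 0.00287), rose with DOX by 1.00 ± 0.24 (adjusted p = 0.00973) and rose with DOX in ATRA-treated cells by 1.31 ± 0.28 (adjusted p = 0.00895). FCGR1CP averaged 1.75 ± 0.694 CPM in ATRA+DOX, 1.42 ± 0.357 CPM in ATRA, 2.97 ± 0.532 CPM in DOX and 2.62 ± 0.513 CPM in untreated cells, and it was called in 1 of the 6 comparisons, falling with ATRA by 0.90 ± 0.32 (adjusted p = 0.0371). These calls rest on few counts. That of FCGR1CP was lost without untreated replicate 2 (-0.93, adjusted p = 0.0664) or 3 (-0.73, adjusted p = 0.157) and without ATRA replicate 1 (-0.80, adjusted p = 0.144) or 2 (-0.80, adjusted p = 0.116). The DOX call of FCGR1BP was lost without untreated replicate 3 (0.92, adjusted p = 0.0529), without replicate 3 of both the untreated and the DOX group (0.92, adjusted p = 0.101) and with the share of counts on mitochondrial ribosomal RNA as a term of the model (1.11, adjusted p = 0.247), and its call with DOX in ATRA-treated cells was lost without ATRA replicate 1 (1.06, adjusted p = 0.0841). When the 3 rows were summed, the rise with DOX in ATRA-treated cells was called for the sum (0.47, adjusted p = 0.0434). Exons of FCGR1A also overlap HIST2H2BF on the opposite strand, which held 2642 counts over the 12 libraries, and the strand setting of the counting is not given in the sources used here.

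FCGR2A is the widespread activating low-affinity receptor, with its activation motif in its own tail. It had 8.66, 4.50 and 6.94 CPM in ATRA+DOX libraries, 10.5, 8.92 and 9.25 CPM in ATRA libraries, 8.52, 7.96 and 9.21 CPM in DOX libraries, and 8.60, 9.0 and 7.18 CPM in untreated libraries. All groups overlapped the untreated one, and the ATRA+DOX libraries lay below the ATRA libraries. Its changes were 0.23 ± 0.19 with ATRA (adjusted p = 0.379), 0.03 ± 0.20 with DOX (adjusted p = 0.933) and -0.51 ± 0.19 between ATRA+DOX and ATRA cells (adjusted p = 0.148), none of them called. Without ATRA+DOX replicate 1 the last difference was -0.77 (adjusted p = 0.0251) and that between ATRA+DOX and untreated cells was -0.53 (adjusted p = 0.046).

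FCGR2B, the inhibitory receptor, moved far more. Its libraries had 9.56, 6.82 and 12.8 CPM in the ATRA+DOX group, 26.6, 20.9 and 29.3 CPM in the ATRA group, 4.46, 4.78 and 4.22 CPM in the DOX group and 6.28, 5.91 and 8.62 CPM in the untreated group. The ATRA libraries stood clear above all others and the DOX libraries below all others, while ATRA+DOX and untreated libraries overlapped. FCGR2B rose with ATRA by 1.86 ± 0.19 (3.63-fold, adjusted p = 1.3e-07) and, with the hairpin on, by 1.07 ± 0.22 (ATRA+DOX versus DOX, adjusted p = 0.00164). It fell by 1.42 ± 0.18 with DOX in ATRA-treated cells (adjusted p = 7.3e-05). Without ATRA its difference between DOX and untreated cells was -0.62 ± 0.23 (adjusted p = 0.0677), and the call was gained without ATRA+DOX replicate 2 (-0.61, adjusted p = 0.0495) or replicate 3 (-0.61, adjusted p = 0.0471). Between ATRA+DOX and untreated cells it differed by 0.44 ± 0.20 (adjusted p = 0.087), which was called without untreated replicate 3 (0.65, adjusted p = 0.0363) or without ATRA+DOX replicate 2 (0.65, adjusted p = 0.0156).

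FCGR2C, which arose from a crossover of the 2 other FCGR2 genes and joins the outer part of FCGR2B to the activating tail of FCGR2A, followed FCGR2B. It had 7.46, 4.90 and 6.18 CPM in ATRA+DOX libraries, 25.0, 23.5 and 28.5 CPM in ATRA libraries, 3.50, 2.20 and 2.69 CPM in DOX libraries, and 5.22, 6.26 and 8.67 CPM in untreated libraries. The ATRA libraries stood clear above all others, and the DOX libraries were the lowest, with the ATRA+DOX libraries inside or just below the untreated range. FCGR2C rose with ATRA by 1.90 ± 0.18 (3.74-fold, adjusted p = 5.8e-08) and fell by 2.04 ± 0.19 with DOX in ATRA-treated cells (adjusted p = 2.2e-06). It fell by 1.31 ± 0.24 with DOX without ATRA (adjusted p = 0.00227) and rose with ATRA in cells given DOX by 1.17 ± 0.24 (ATRA+DOX versus DOX, adjusted p = 0.00144). The DOX group held 91 FCGR2C counts over its 3 libraries, with 7 in replicate 3. With every library thinned to the smallest total both the DOX call (-1.07, adjusted p = 0.0628) and the ATRA+DOX versus DOX call (1.05, adjusted p = 0.0509) were lost. Between ATRA+DOX and untreated cells FCGR2C was not called (-0.14 ± 0.20, adjusted p = 0.616).

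The make-up of the family therefore shifted. FCGR2A held 29.4 ± 3.77% of the counts of the 3 FCGR2 genes in ATRA+DOX cells, 15.8 ± 1.77% in ATRA cells, 54.0 ± 2.80% in DOX cells and 38.2 ± 7.68% in untreated cells (SD, n = 3 each). The 3 genes together had 868, 2177, 521 and 898 counts in the ATRA+DOX, ATRA, DOX and untreated groups. Summed FCGR2B and FCGR2C stood to FCGR2A as 2.44 ± 0.412 in ATRA+DOX, 5.37 ± 0.759 in ATRA, 0.853 ± 0.0943 in DOX and 1.70 ± 0.614 in untreated cells. Shared sequence limits the split between FCGR2B and FCGR2C more than that from FCGR2A. Of the 100-base stretches of FCGR2C transcripts 16.1% occur in FCGR2B and 7.17% in FCGR2A, and of those of FCGR2B 9.51% occur in FCGR2C. Summed to 1 row, FCGR2B and FCGR2C fell by 0.92 with DOX in cells without ATRA (adjusted p = 0.00505). All 3 genes summed rose with ATRA by 1.47 (adjusted p = 4.1e-08), fell by 0.49 with DOX (adjusted p = 0.0388) and fell by 1.43 with DOX in ATRA-treated cells (adjusted p = 2.8e-06).

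**Figure D2:**
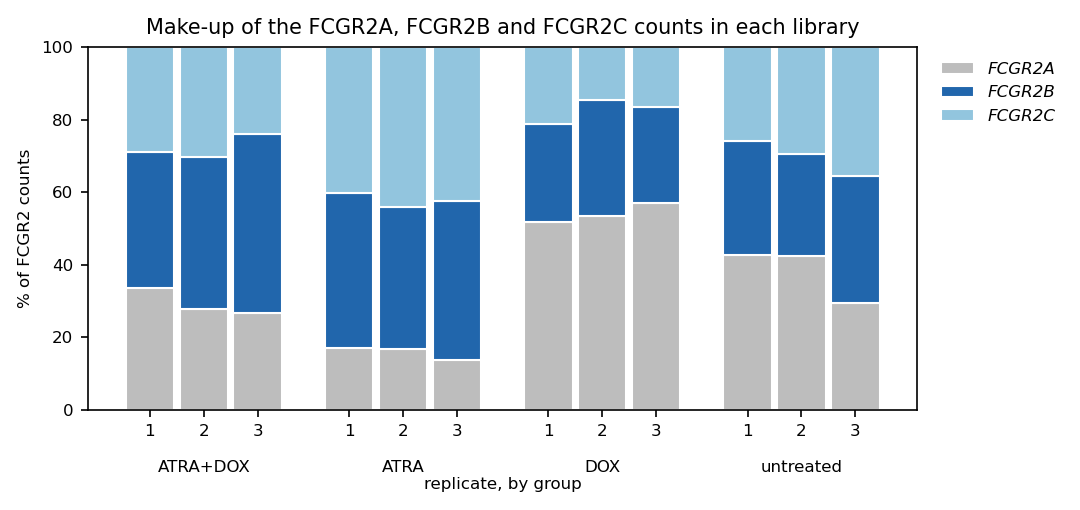
Share of the FCGR2A, FCGR2B and FCGR2C counts that fell to each gene (y axis, percent, stacked to 100) in every library of the ATRA+DOX, ATRA, DOX and untreated groups (x axis). FCGR2A held 13.8% to 17.0% in the ATRA libraries and 51.7% to 57.1% in the DOX libraries. The 57.1% is that of DOX replicate 3, which had 24 FCGR2A, 11 FCGR2B and 7 FCGR2C counts.

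The 3 genes lie in a run on the plus strand of chromosome 1, from FCGR2A (chr1:161505430-161524013) through FCGR2C (chr1:161581339-161605662) to FCGR2B (chr1:161663147-161678654). This interval was looked at after values were seen. It holds 12 annotated genes, of which 6 had enough counts to be tested and 3 had no counts. FCGR3A and FCGR3B, the CD16 genes of natural killer cells and neutrophils, had 5 and 2 counts over the 12 libraries. HSPA7, a pseudogene that starts 628 bases after the end of FCGR2C, had 16.3, 8.03 and 11.7 CPM in ATRA+DOX libraries, 37.9, 28.7 and 35.3 CPM in ATRA libraries, 3.90, 3.29 and 4.99 CPM in DOX libraries, and 6.38, 10.1 and 10.2 CPM in untreated libraries. Its order of groups was that of FCGR2B. HSPA7 rose with ATRA by 1.92 ± 0.20 (adjusted p = 1.7e-07) and fell by 1.27 ± 0.26 with DOX in cells without ATRA (adjusted p = 0.00429) and by 1.49 ± 0.19 in cells with it (adjusted p = 7.3e-05). The first of these DOX calls was lost with the mitochondrial ribosomal RNA share as a term (-1.11, adjusted p = 0.263) and without replicate 3 of both the untreated and the DOX group (-1.21, adjusted p = 0.0686). HSPA6, the gene for an inducible heat shock protein next to FCGR2A and a near-copy of HSPA7, rose with ATRA by 3.04 ± 0.42 (adjusted p = 1.1e-05) at means of 2.74 CPM in ATRA and 0.325 CPM in untreated cells, and its difference of -0.69 ± 0.33 between ATRA+DOX and ATRA cells was not called (adjusted p = 0.265). An RNA antisense to FCGR2B, AL451067.1, rose with ATRA by 1.83 ± 0.32 (adjusted p = 0.00016) and fell by 1.48 ± 0.31 with DOX in ATRA-treated cells (adjusted p = 0.00738). The second call was lost without ATRA replicate 1 (-1.34, adjusted p = 0.0654) or 3 (-1.36, adjusted p = 0.0623) and without ATRA+DOX replicate 2 (-1.35, adjusted p = 0.0541). With the strand setting unknown, its counts and those of FCGR2B where they overlap cannot be told apart.

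**Figure D3:**
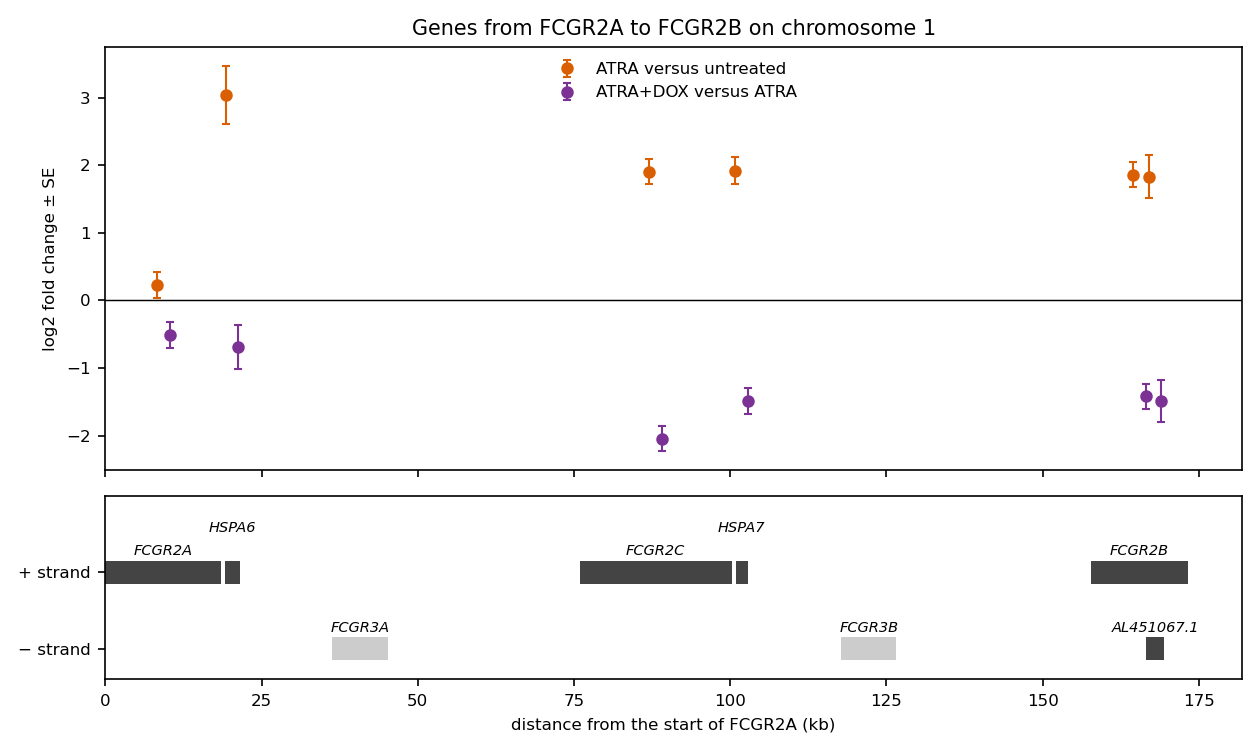
Log2 fold change ± SE (upper panel, y axis) of the 6 tested genes between FCGR2A and FCGR2B for ATRA versus untreated (orange) and ATRA+DOX versus ATRA (purple), and the position of the tested (dark) and of the 2 FCGR3 genes (light) by strand (lower panel), both against the distance from the start of FCGR2A in kb, with points set 1 kb to either side of the centre of a gene. FCGR2C, HSPA7, FCGR2B and its antisense RNA lie above 1.8 for ATRA and below -1.4 for DOX under ATRA.

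FCER1G encodes the gamma chain, the adaptor that carries the activation motif for FCGR1A and for other receptors without a signalling tail. It lies on chromosome 1 (chr1:161215234-161220699) and was the lowest of the 9 in CPM, with 2.10, 1.36 and 1.95 CPM in ATRA+DOX libraries, 2.67, 3.51 and 2.99 CPM in ATRA libraries, 2.07, 1.98 and 1.54 CPM in DOX libraries and 2.22, 1.71 and 1.55 CPM in untreated libraries. The ATRA libraries lay above all others and the other 3 groups overlapped. These levels rest on 70, 106, 66 and 71 counts over the 3 libraries of the ATRA+DOX, ATRA, DOX and untreated groups. FCER1G rose with ATRA by 0.75 ± 0.27 (adjusted p = 0.0439). That call was lost without untreated replicate 2 (0.71, adjusted p = 0.108) or 3 (0.62, adjusted p = 0.158), and without ATRA replicate 1 (0.86, adjusted p = 0.0613), 2 (0.64, adjusted p = 0.146) or 3 (0.77, adjusted p = 0.084). Between ATRA+DOX and ATRA cells FCER1G differed by -0.73 ± 0.27, which was not called (adjusted p = 0.142).

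FCGRT encodes the heavy chain of the neonatal Fc receptor and lies on chromosome 19 (chr19:49506816-49526333). It had 72.8, 74.0 and 83.2 CPM in ATRA+DOX libraries, 87.8, 81.6 and 77.9 CPM in ATRA libraries, 41.2, 50.0 and 41.1 CPM in DOX libraries and 32.9, 35.7 and 42.3 CPM in untreated libraries. Every library given ATRA lay above every library without it, and within each of these sets the groups with and without DOX overlapped. FCGRT rose with ATRA by 1.15 ± 0.10 (2.22-fold, adjusted p = 2.1e-08) and with ATRA in cells given DOX by 0.77 ± 0.11 (adjusted p = 1.3e-05). Its differences of 0.26 ± 0.11 between DOX and untreated cells (adjusted p = 0.0977) and of -0.11 ± 0.10 between ATRA+DOX and ATRA cells (adjusted p = 0.601) were not called. The first of these was called without DOX replicate 1 (0.34, adjusted p = 0.0369).

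FGR encodes a SRC-family kinase of monocytes and granulocytes and lies on the minus strand of chromosome 1 (chr1:27612064-27635277). Its libraries had 52.1, 41.6 and 44.6 CPM in the ATRA+DOX group, 54.4, 47.8 and 51.8 CPM in the ATRA group, 9.15, 4.06 and 8.83 CPM in the DOX group and 3.38, 4.54 and 4.92 CPM in the untreated group. Every library with ATRA stood far above every library without it. DOX replicate 2 lay inside the untreated range, below the other DOX libraries. FGR rose with ATRA by 3.55 ± 0.20 (11.7-fold, adjusted p = 8.9e-12), and with ATRA in cells given DOX by 2.79 ± 0.20 (6.93-fold, adjusted p = 1.1e-09). With DOX its differences of 0.61 ± 0.24 in cells without ATRA (adjusted p = 0.0918) and of -0.15 ± 0.15 in cells with ATRA (adjusted p = 0.641) were not called. Without DOX replicate 2 the first was 1.05 (adjusted p = 0.00253).

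LYN, the SRC-family kinase that phosphorylates both activating and inhibitory receptors, lies on chromosome 8 (chr8:55879813-56014168). It had 196, 214 and 212 CPM in ATRA+DOX libraries, 209.5, 205 and 207 CPM in ATRA libraries, 147, 139.6 and 142 CPM in DOX libraries and 143, 149 and 119 CPM in untreated libraries. The libraries with ATRA lay above those without it, and DOX made no gap on either side. LYN rose with ATRA by 0.60 ± 0.08 (1.52-fold, adjusted p = 1.3e-05) and with ATRA in cells given DOX by 0.54 ± 0.09 (adjusted p = 9.8e-05). Its means in ATRA+DOX and in ATRA cells were both 207 CPM, and the difference between DOX and untreated cells was 0.06 ± 0.09 (adjusted p = 0.657).

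SYK lies on chromosome 9 (chr9:90801787-90898549). Its libraries had 107, 116 and 120.5 CPM in the ATRA+DOX group, 128, 126 and 117 CPM in the ATRA group, 129.9, 132 and 133 CPM in the DOX group and 155, 153 and 139.7 CPM in the untreated group. The untreated libraries were the highest, and the ATRA+DOX and ATRA libraries overlapped. SYK fell by 0.27 ± 0.08 with ATRA (to 0.828 times the untreated level, adjusted p = 0.0116) and was lower in ATRA+DOX than in untreated cells by a log2 change of -0.38 ± 0.08 (adjusted p = 0.000677). The ATRA call was lost without untreated replicate 1 (-0.24, adjusted p = 0.0652) or 2 (-0.26, adjusted p = 0.0505) and without ATRA replicate 3 (-0.22, adjusted p = 0.0871). Fitting without a filter on low counts lost the SYK call as well (-0.24, adjusted p = 0.121). The SYK changes of -0.20 ± 0.08 with ATRA in cells given DOX (adjusted p = 0.0818) and of -0.18 ± 0.08 with DOX (adjusted p = 0.125) were not called.

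Taken by comparison, all 9 genes passed the filter on low counts. With ATRA 6 rose and 2 fell, against 15.7% of the 16104 genes tested that rose and 13.2% that fell, and the median log2 change was 0.75 over the 9 genes and -0.01 over all genes. With ATRA in cells given DOX 5 rose and 1 fell, against 10.7% and 8.24% of all genes, at medians of 0.54 and -0.01. With DOX in cells without ATRA 1 rose and 1 fell, against 8.08% and 7.1% of all genes, which is close to that background, and the medians were 0.06 and 0.01. With DOX in ATRA-treated cells 2 fell and none rose, against 2.54% of all genes that fell and 1.89% that rose, at medians of -0.15 and -0.00. There 5 of the 9 genes and 3053 of the 16104 genes tested had an unadjusted p under 0.05 (edgeR). Between ATRA+DOX and untreated cells 3 rose and 1 fell, against 19.6% and 18.5% of all genes. These comparisons share groups, so their counts are not independent of each other. The 9 genes were chosen with earlier results of these data known, so a count above the share over all genes is a description, not a test.

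**Figure D4:**
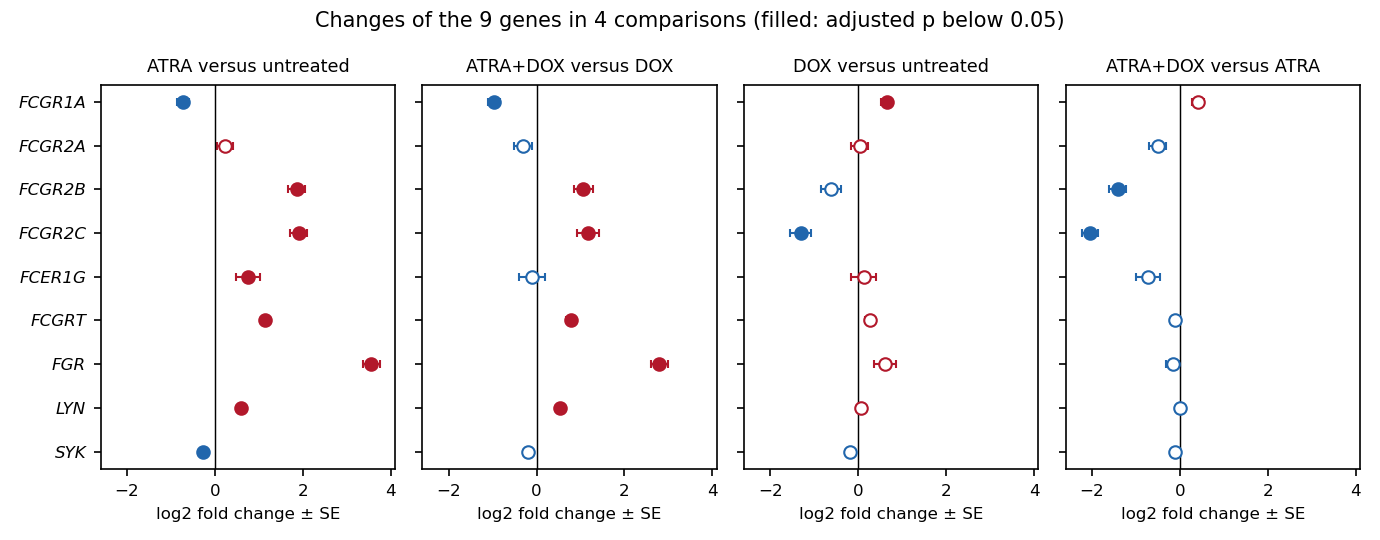
Log2 fold change ± SE (x axis) of each of the 9 genes (rows) in 4 comparisons (panels), positive where the group named first is higher. Filled points have an adjusted p below 0.05. FGR reaches 3.55 with ATRA and 2.79 with ATRA in cells given DOX, and in the last panel FCGR2B and FCGR2C are the filled points.

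Whether the ATRA change differed with the hairpin on was tested as the interaction of both agents, that is the change from DOX to ATRA+DOX minus that from untreated to ATRA cells. Of the 9 genes 5 had an unadjusted p under 0.05 in edgeR, as had 1735 of the 16104 genes tested. None of the 9 genes was called by edgeR, against 0.267% of all genes. DESeq2 called none either. The estimates were -0.85 ± 0.40 for FCER1G (adjusted p = 0.455), -0.80 ± 0.29 for FCGR2B (adjusted p = 0.329), -0.76 ± 0.29 for FGR (adjusted p = 0.346), -0.73 ± 0.31 for FCGR2C (adjusted p = 0.405) and -0.37 ± 0.15 for FCGRT (adjusted p = 0.371). They have the sign of a smaller ATRA change with DOX, but at this precision none stood clear of the spread after adjustment. FGR was called without DOX replicate 2 (-1.20, adjusted p = 0.0151). The count of all genes called was 43, and it became 747 without DOX replicate 1, 129 and 21 without ATRA+DOX replicates 1 and 2, 23 and 10 without ATRA replicates 1 and 3, and 11, 16 and 16 without untreated replicates 1, 2 and 3.

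Results with DOX in cells without ATRA rest on libraries that also differed in other ways. Mitochondrial ribosomal RNA took 1.02% to 2.18% of the counts in DOX libraries against 2.54% to 4.60% in untreated libraries, and 1.23% to 2.02% in ATRA+DOX libraries against 2.09% to 2.74% in ATRA libraries. With this share as a term of the model FCGR1A was 0.70 ± 0.19 (adjusted p = 0.13) between DOX and untreated cells. FCGR2C was -0.75 ± 0.31 (adjusted p = 0.461), so both calls were lost. In the main fit they were 0.65 ± 0.13 and -1.31 ± 0.24. The share did not overlap between groups with and without DOX in either pair, so this fit can hardly tell the share and DOX apart. Without untreated replicate 3 and DOX replicate 3 together FCGR1A was 0.58 (adjusted p = 0.0772) and FCGR2C -1.04 (adjusted p = 0.0631). Under ATRA the calls of FCGR2B and FCGR2C between ATRA+DOX and ATRA cells held under all alternatives tried, sums of the near-copies included, with log2 changes from -1.70 to -1.22 and from -2.22 to -1.43. The count of all genes called between DOX and untreated cells was 2446, and it became 731 without untreated replicate 3, 659 without DOX replicate 2, 1462 without DOX replicate 3 and 4326 without DOX replicate 1. For DOX in ATRA-treated cells it was 713, and 363, 411 and 264 without ATRA replicates 1, 2 and 3 and 329 and 346 without ATRA+DOX replicates 2 and 3.

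Levels of different genes were compared per kilobase of exon sequence (CPM per kb). Reads on sequence shared with other genes may have been lost, which limits the places of FCGR1A and the FCGR2 genes below. In both groups with ATRA the order began LYN, SYK, FCGRT, FGR. LYN had 33.5 ± 1.60, SYK 22 ± 1.36, FCGRT 18.4 ± 1.36 and FGR 13.3 ± 1.57 CPM per kb in ATRA+DOX cells, and none of these neighbours overlapped. In untreated cells SYK led with 28.6 ± 1.60 CPM per kb, before LYN with 22.1 ± 2.60, FCGR1A with 9.37 ± 0.167 and FCGRT with 8.87 ± 1.15, of which FCGR1A and FCGRT overlapped. DOX cells kept that order, with SYK at 25.3 ± 0.330, LYN at 23.1 ± 0.575, FCGR1A at 15.0 ± 2.06 and FCGRT at 10.6 ± 1.22 CPM per kb, without overlap. FGR had 1.23 ± 0.230 CPM per kb in untreated cells, where its range overlapped those of FCGR2A above it and FCGR2B below it. At the low end of ATRA cells FCGR2C had 7.17 ± 0.723, FCGR1A 5.67 ± 0.553, FCGR2B 3.85 ± 0.643, FCER1G 3.17 ± 0.438 and FCGR2A 1.80 ± 0.162 CPM per kb, and among these FCGR2B and FCER1G overlapped. In ATRA+DOX cells FCER1G, FCGR2C, FCGR2B and FCGR2A lay between 1.26 and 1.87 CPM per kb, each overlapping the next.

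The likeness of other genes was measured as the root mean square difference between group-mean log2 CPM profiles over the 4 groups, each centred on its own mean, among 13290 genes. It was computed for members whose group means spanned at least 1 log2 unit, which left out FCGR2A, FCER1G, LYN and SYK. For FCGR1A the closest were NEFH (0.0291), FAIM (0.052) and INKA1 (0.0561). For FCGR2B they were XYLT1 (0.165), KCTD12 (0.184) and DTX4 (0.184), and for FCGR2C they were HSPA7 (0.208), FCGR2B (0.313) and XYLT1 (0.392). For FCGRT they were HLA-C (0.0196), a gene without a symbol (0.0211) and CXCR2 (0.0273). For FGR they were JCAD (0.112), CDH23 (0.143) and FAM20C (0.152). Each profile has 4 points, and no common role is implied.

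The stretches before the start sites of FCGR1A, FCGR2A and FCGR2B are shown because these receptors moved in different ways. RefSeq promoter entries (GRCh38.p14, 250 bases before a start site to 50 after it) matched 7 of the 9 members, FCGR2C and LYN being the others. The last 150 bases before each start are given on the plus strand, at chr1:149782544-149782693 for FCGR1A, chr1:161505307-161505456 for FCGR2A, and chr1:161647093-161647242 and chr1:161662993-161663142 for the 2 starts of FCGR2B.
FCGR1A: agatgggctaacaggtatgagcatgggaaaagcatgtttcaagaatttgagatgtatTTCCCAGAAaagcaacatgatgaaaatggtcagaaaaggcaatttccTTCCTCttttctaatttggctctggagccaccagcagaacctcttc
FCGR2A: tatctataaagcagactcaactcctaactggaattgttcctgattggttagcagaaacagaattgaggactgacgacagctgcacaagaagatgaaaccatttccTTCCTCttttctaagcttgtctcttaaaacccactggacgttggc
FCGR2B, upstream start: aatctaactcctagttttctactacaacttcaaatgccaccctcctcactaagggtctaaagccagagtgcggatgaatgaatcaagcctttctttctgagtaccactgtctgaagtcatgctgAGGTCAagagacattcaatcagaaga
FCGR2B, downstream start: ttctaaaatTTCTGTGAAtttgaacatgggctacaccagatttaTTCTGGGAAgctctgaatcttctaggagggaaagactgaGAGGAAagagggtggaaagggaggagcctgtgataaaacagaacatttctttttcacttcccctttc
Capitals mark matches on either strand to TTCNNNGAA, the element bound by STAT factors, AGGTCA, the half-site of retinoid and other nuclear receptors, and GAGGAA, the core bound by the myeloid factor PU.1. Positions are those of a match's first base on the plus strand, counted back from the base before the start as -1. FCGR1A has TTCNNNGAA at -93 and GAGGAA at -46, FCGR2A has GAGGAA at -45, the upstream start of FCGR2B has AGGTCA at -26, and its downstream start has TTCNNNGAA at -141 and -106 and GAGGAA at -67. No 2 of these matches overlap. Of 35116 promoter windows of the same length 3.66% held TTCNNNGAA, 7.63% AGGTCA and 14.8% GAGGAA. Over all 250 bases before the start TTCNNNGAA and AGGTCA were absent from the entries of FCER1G, FCGRT, FGR and SYK. There GAGGAA was present in entries of FGR and SYK and in 23.6% of all entries. The 50 bases after the start were not searched. Such a match is a description, not a bound site.

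Genes that work with the 9 members were taken from 8 lists, chosen with earlier results of these data known. Of the 16104 genes tested 15.7% rose and 13.2% fell with ATRA. With ATRA 11 of 14 tested ITIM inhibitory receptors rose and 1 fell, with a median log2 change of 1.32, and 8 of 13 ITAM adaptors and their receptors rose and 1 fell, with a median of 0.93, against -0.01 for all genes. LILRB1, an inhibitory receptor for class I molecules, rose by 2.77 ± 0.18 (adjusted p = 1.8e-10), at means of 23.1 CPM in ATRA and 3.34 CPM in untreated cells. LILRB4 rose by 1.85 ± 0.12 (adjusted p = 8.7e-11), CD300LF by 1.37 ± 0.10 (adjusted p = 1.2e-09) and PECAM1 by 1.27 ± 0.10 (adjusted p = 3.2e-09). TYROBP, the DAP12 adaptor that plays the part of FCER1G for another set of receptors, had means of 79.3 CPM in ATRA and 22.6 CPM in untreated cells and rose by 1.81 ± 0.12 (adjusted p = 1.4e-10). Receptors that pair with such adaptors rose as well, CD300LB by 4.07 ± 0.24, LILRA1 by 2.75 ± 0.14 and SIRPB1 by 1.34 ± 0.12 (adjusted p at most 1.7e-08). The adaptors and receptors CLEC5A, CLEC4D, CLEC4E, CLEC6A, CD300E, SIGLEC5 and VSTM1 had no counts.

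With DOX in ATRA-treated cells 3 of the 14 inhibitory receptors fell and 1 rose, at a median of -0.03, and 2 of the 13 ITAM genes fell, at a median of -0.37, against -0.00 for all genes. Of all genes tested 2.54% fell and 1.89% rose in this comparison. LILRB1 fell by 1.20 ± 0.16 (adjusted p = 0.00012), LILRA1 by 0.76 ± 0.12 (adjusted p = 0.00047) and CD300LB by 0.93 ± 0.18 (adjusted p = 0.004). For LILRA1 the interaction was called (-0.97 ± 0.21, adjusted p = 0.045), but leaving out any 1 library lost that call, except for ATRA replicate 2, DOX replicate 1 and ATRA+DOX replicate 1, with adjusted p up to 0.155. PECAM1, an adhesion receptor, rose by 0.38 ± 0.10 (adjusted p = 0.026), a call lost without any of the 3 ATRA replicates or without ATRA+DOX replicate 1 or 3, with log2 changes from 0.32 to 0.43 and adjusted p up to 0.0995. TYROBP did not pass the test there (-0.07 ± 0.11, adjusted p = 0.77).

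Of 7 other Fc receptor rows tested 4 rose and 2 fell with ATRA, the 2 that fell being the FCGR1 copies above. Over all genes tested 15.7% rose and 13.2% fell. FCMR, the receptor for IgM, rose by 3.31 ± 0.30 (adjusted p = 1.9e-08) at means of 8.67 CPM in ATRA and 0.854 CPM in untreated cells. FCER2, the low-affinity IgE receptor CD23, rose by 2.89 ± 0.30 with ATRA (adjusted p = 1.7e-07), at means of 22 CPM in ATRA and 2.94 CPM in untreated cells, and by 1.35 ± 0.34 with DOX (adjusted p = 0.013). The DOX call of FCER2 was lost at equal depth (1.40, adjusted p = 0.0788) and without replicate 3 of both the untreated and the DOX group (1.43, adjusted p = 0.109). TRIM21, a cytosolic antibody receptor, rose with ATRA by 0.51 ± 0.12 (adjusted p = 0.0026). The IgE receptor chain FCER1A and FCRL3 had no counts.

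Of the 4 other SRC-family kinases tested 2 rose and 1 fell with ATRA, where 15.7% of all genes tested rose and 13.2% fell. SRC, the kinase that gives the family its name, rose by 0.91 ± 0.11 (adjusted p = 2.1e-06), at means of 26.2 CPM in ATRA and 14 CPM in untreated cells. Of 16 regulators of these kinases 7 rose and 5 fell with ATRA, at a median of 0.07. UBASH3B, a phosphatase that acts on SYK, rose by 1.37 ± 0.10 (adjusted p = 1.1e-09) and PTPN6, the SHP-1 phosphatase recruited by inhibitory motifs, by 0.93 ± 0.09 (adjusted p = 7.5e-08), at means of 504 CPM in ATRA and 264 CPM in untreated cells. PAG1, which holds the SRC-family inhibitor CSK at the membrane, fell by 0.80 ± 0.13 with ATRA (adjusted p = 8e-05).

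Of 25 SYK signalling partners 9 rose and 2 fell with ATRA, at a median of 0.11, where 15.7% of all genes tested rose and 13.2% fell. The adaptor LCP2 (SLP-76) rose by 1.61 ± 0.09 (adjusted p = 1.9e-11), PIK3R5 by 1.51 ± 0.11 (adjusted p = 1.2e-09), CARD9, which links SYK to NF-kB, by 0.69 ± 0.09 (adjusted p = 3.7e-06) and PRKCB by 0.56 ± 0.09 (adjusted p = 0.00011). Of 24 genes of the phagocytic cup and its actin 7 rose and 2 fell with ATRA, at a median of 0.13, and 4 rose and 2 fell with DOX, at a median of 0.06. With DOX 8.08% of all genes tested rose and 7.1% fell. The myosins MYO1F and MYO1G rose with ATRA by 0.65 ± 0.08 and 0.62 ± 0.09 (adjusted p at most 2.4e-05), and the actin-severing gelsolin gene GSN rose with DOX by 0.80 ± 0.10 (adjusted p = 0.00015). Of 7 genes of IgG recycling 2 rose and 1 fell with ATRA and 2 rose with DOX. B2M, the light chain of the FCGRT receptor, rose by 0.60 ± 0.12 with ATRA (adjusted p = 0.00053), at means of 721 CPM in ATRA and 476 CPM in untreated cells, and by 0.50 ± 0.12 with DOX (adjusted p = 0.0091). The DOX call of B2M was lost without untreated replicate 3 (0.49, adjusted p = 0.0515) or DOX replicate 2 (0.34, adjusted p = 0.081), without replicate 3 of both groups (0.48, adjusted p = 0.126) and with the mitochondrial ribosomal RNA share as a term (0.22, adjusted p = 0.771).

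With DOX in cells without ATRA 3 of 14 inhibitory receptors rose, 1 of 13 ITAM genes rose, 2 of 7 other Fc receptors rose, 1 of 4 other SRC-family kinases fell, 1 of 16 regulators rose and 3 fell, and 1 of 25 SYK partners rose, where 8.08% of all tested genes rose and 7.1% fell. With ATRA in cells given DOX, where 10.7% of all tested genes rose and 8.24% fell, the inhibitory receptors again had 11 rises and 1 fall, the ITAM genes 6 and 1, the SYK partners 7 rises, the other Fc receptors 4 and 1, the other SRC-family kinases 2 rises, the regulators 4 and 1, the phagocytic genes 6 and 1 and the recycling genes 1 and 1.

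**Figure D5:**
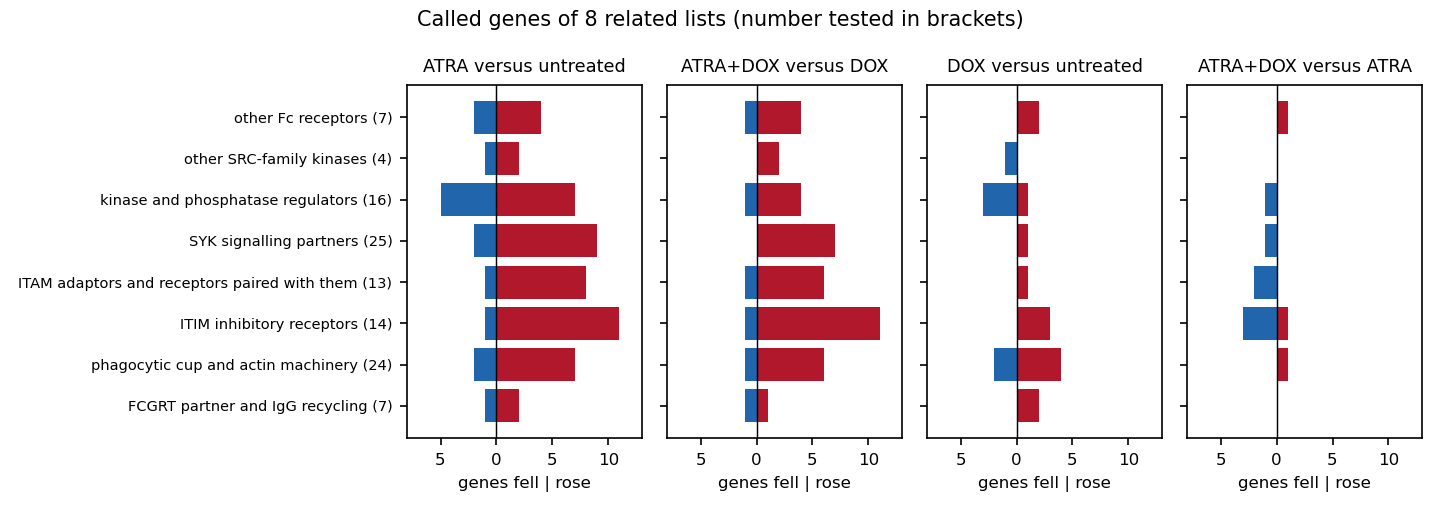
Number of called genes (x axis, falls to the left and rises to the right of 0) in each of 8 lists (rows, number tested in brackets) for 4 comparisons (panels). The ITIM receptors show 11 rises in both comparisons that test ATRA, while no list has more than 4 rises or 3 falls in the comparisons that test DOX.

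With ATRA 7 of 10 tested myeloid markers rose and 2 fell. The 2 that fell are not named here. The summed level of the list lay between 2222 and 2437 CPM in ATRA libraries against 1732 to 1872 CPM in untreated libraries. CEBPA was the largest part of this sum, with 567 to 1169 CPM over all libraries. Over all genes tested 15.7% rose and 13.2% fell with ATRA. ITGAM, an integrin of mature myeloid cells, rose by 1.38 ± 0.11 (adjusted p = 2.1e-09) and CSF1R, the macrophage growth factor receptor, by 1.89 ± 0.16 (adjusted p = 7.2e-09). NCAM1 of the natural killer list fell by 1.19 ± 0.11 (adjusted p = 1.9e-08), and the summed level of that list lay between 68.5 and 80.3 CPM in ATRA libraries against 140.4 to 168 CPM in untreated libraries, with CD3E and CD2 at 0. B cell markers summed to 92.1 to 98.8 CPM in ATRA and 95.3 to 111 CPM in untreated libraries, of which PAX5 and BANK1 made up most, and 1 of 4 tested rose and 1 fell. Of the fibroblast and epithelial list KRT8 and KRT18 had enough counts, of which 1 fell with ATRA, and no erythroid, megakaryocyte or mast cell marker did. With DOX in ATRA-treated cells 1 of the 10 tested myeloid markers rose and 2 fell, at a median of -0.15, and their summed level lay between 2272 and 2476 CPM in ATRA+DOX libraries. Over all genes tested 1.89% rose and 2.54% fell in this comparison. ITGAM fell by 0.43 ± 0.10 (adjusted p = 0.019), a call lost without ATRA replicate 1 or 3 or ATRA+DOX replicate 2 (adjusted p from 0.079 to 0.133). CSF1R fell by 0.53 ± 0.14 (adjusted p = 0.0405), a call lost without ATRA replicate 1 or 3, untreated replicate 2, DOX replicate 3 or any ATRA+DOX replicate (adjusted p from 0.0533 to 0.248). With DOX in cells without ATRA 2 myeloid markers rose and 1 fell, at a median of 0.14, with sums between 2039 and 2109 CPM in DOX libraries. Over all genes tested 8.08% rose and 7.1% fell. In that comparison BANK1 rose by 0.35 ± 0.10 (adjusted p = 0.0318), KRT18 rose by 0.43 ± 0.11 (adjusted p = 0.0149) and NCAM1 fell by 0.34 ± 0.10 (adjusted p = 0.0332), and each of the 3 calls was lost with the mitochondrial ribosomal RNA share as a term (adjusted p from 0.448 to 0.954). The natural killer list summed to 70.6 to 83.6 CPM in ATRA+DOX and 113 to 143 CPM in DOX libraries. KRT18 also rose with DOX in ATRA-treated cells by 0.43 ± 0.12 (adjusted p = 0.0364), and no B cell or natural killer marker was called there. This KRT18 call was lost at equal depth (0.45, adjusted p = 0.189) and with the mitochondrial ribosomal RNA share as a term (0.36, adjusted p = 0.111). Leaving out untreated replicate 1, any ATRA replicate or ATRA+DOX replicate 1 or 2 lost it as well (adjusted p from 0.0525 to 0.201). The part of these shifts in the changes of the 9 genes was not tested.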

How the data were processed

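RNA of 12 MOLM14 cultures (4 groups of 3) was sequenced in pairs of reads on an Illumina NovaSeq, per the labels' protocols. The authors deposited raw read counts per Ensembl gene. FastQC, STAR, HTSeq and the GRCh38 build are named in the submitters' processing notes, while versions, annotation release and strand setting are not given in the sources used here. Of the 61487 gene rows 61369 matched a table of gene names and 58312 matched GENCODE release 29, which gave lengths and positions. A further 23 columns of the table were empty.

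Counts were fitted with edgeR 4.0.16 (R 4.3.3, limma 3.58.1) by the quasi-likelihood test, with 1 model of the 4 group means, TMM scaling and edgeR's own filter on low counts, which left 16104 genes, all 9 members among them. The biological coefficient of variation was 9.54%. P-values were adjusted by the Benjamini-Hochberg method over all genes tested and a gene was called below 0.05. SE is the log2 fold change divided by the square root of the F statistic. The steps were tested on simulated data. Replicates of a group differed by more than sampling noise. Same-numbered libraries did not pair, so no block was used. Alternatives were DESeq2 1.42.0, library size alone, no filter, a replicate block, groups fitted alone, equal depth, each library left out, untreated and DOX replicates 3 left out together, the mitochondrial ribosomal RNA share as a term, and sums of near-copies.

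The members and the 13 gene lists were chosen with earlier results of these data known. All members are named. Of each list up to 4 genes are named, those with the smallest adjusted p in any comparison at a mean of at least 2 CPM, and of the genes most like a member the nearest 3. Some genes of the lists are not reported here. Genes between FCGR2A and FCGR2B were chosen after their values were seen.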

Additional observations from a re-analysis of the deposited data

Results flagged for a closer look

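For LILRA1, a receptor that pairs with the ITAM adaptor FCER1G, the difference in ATRA change between cells with and without DOX passed the test with all libraries at -0.97 ± 0.21 on the log2 scale (edgeR interaction, adjusted p = 0.0451). Its ATRA change was 1.78 ± 0.15 in cells given DOX and 2.75 ± 0.14 in cells without DOX. The call was lost with library size alone (-0.96, adjusted p = 0.0951), at equal depth (-1.11, adjusted p = 0.31), with the mitochondrial ribosomal RNA share as a term (-0.82, adjusted p = 0.168) and without replicate 3 of both the untreated and the DOX group (-0.85, adjusted p = 0.28). It was also lost without any 1 library, with adjusted p up to 0.155, except for ATRA replicate 2, DOX replicate 1 and ATRA+DOX replicate 1. No cause was tested.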

How the results depend on the processing

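Of 185 recomputed log2 changes of the 9 genes for ATRA versus untreated 170 kept direction and side of the threshold, 14 lost their call, 1 gained one and none changed sign. For ATRA+DOX versus DOX 182 of 185 kept both. For DOX versus untreated 164 of 185 did, for ATRA+DOX versus ATRA 168, for ATRA+DOX versus untreated 163, and for the interaction 172 of 176. Leaving out 1 library at a time, the number of members called ranged from 6 to 8 for ATRA, 2 to 3 for DOX, 2 to 3 for ATRA+DOX versus ATRA, 4 to 6 for ATRA+DOX versus untreated and 0 to 1 for the interaction, and was 6 each time for ATRA+DOX versus DOX.

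The 2 members called for DOX versus untreated became 4 without a filter, 1 at equal depth, 0 without untreated and DOX replicates 3 together, 0 with the mitochondrial ribosomal RNA share as a term and 4 with the FCGR2 genes summed, where the sum is counted for each of its 3 genes and the calls were FCGR1A and the sum. The causes were not tested. At equal depth FCGR2C was -1.07 there (adjusted p = 0.0628). FCER1G lost its ATRA call without a filter (adjusted p = 0.079), at the mitochondrial term (adjusted p = 0.0663) and with DESeq2. With a replicate block, whose numbers did not pair the libraries (r from -0.244 to 0.267 over 18 same-numbered pairs, and 12 of 36 comparisons of a library with the libraries of another group closest at its own number), the counts of all genes called were 4677 for ATRA, 2349 for DOX, 729 for ATRA+DOX versus ATRA and 3052 for ATRA+DOX versus DOX, FCER1G was 0.74 for ATRA (adjusted p = 0.0575) and FCGR2B 0.46 for ATRA+DOX versus untreated (adjusted p = 0.0269).

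Sign changes fell on differences that were not called in the main fit. Of the values with the changed sign, those of all FCGR2 genes summed were called for DOX (adjusted p = 0.0388) and for ATRA+DOX versus DOX (adjusted p = 0.0215). With the FCGR2 genes summed, FCGR2A stood at -0.49 for DOX, 0.52 for ATRA+DOX versus DOX and 0.035 for ATRA+DOX versus untreated, and FCGR2C at 0.035 for the last, or 0.19 with FCGR2B and FCGR2C summed, since these values are those of the sums. For DOX, FCGR2A was -0.0034 with library size alone, -0.089 without untreated and DOX replicates 3 and -0.15 with the mitochondrial term, and LYN was -0.020 and -0.058 in the same pair of fits. For ATRA+DOX versus untreated, FCGR2C was 0.12 and 0.32 in those fits, and FCER1G was -0.11 and -0.054, and -0.0012 with the replicate block. For ATRA+DOX versus ATRA, FGR was 0.049 with the mitochondrial term, and LYN was 0.011 without a filter, 0.0031 without untreated and DOX replicates 3 and 6.0e-05 with DESeq2. The LYN interaction was 0.023 and 0.0040 without those replicates and with the mitochondrial term. Leaving out single libraries, LYN lay between -0.020 and 0.042 for ATRA+DOX versus ATRA, between -0.025 and 0.13 for DOX and between -0.12 and 0.029 for the interaction. FCER1G lay between -0.12 and 0.19 for ATRA+DOX versus untreated and between -0.24 and 0.052 for ATRA+DOX versus DOX, FCGR2A between -0.063 and 0.10 for DOX, and FCGR2C between -0.31 and 0.12 for ATRA+DOX versus untreated.

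All genes called numbered 4652 for ATRA, and 2695 at equal depth. For DOX they numbered 2446, against 1573 with groups fitted alone, 1168 at equal depth, 169 without untreated and DOX replicates 3 and 66 with the mitochondrial term. For ATRA+DOX versus ATRA they numbered 713, and 400 at equal depth. For ATRA+DOX versus DOX they numbered 3054, and 1875 at equal depth. The interaction count of 43 became 24 with library size alone, 189 without a filter, 9 at equal depth and 117 with DESeq2.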
